A study of Mus with 4 samples.

Results

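The genes described here are 34 of the 26893 named genes on the array, chosen by name for their roles in protein folding and disposal in the endoplasmic reticulum (ER). They fall into 20 chaperones and foldases, 11 genes of ER-associated degradation (ERAD), and 3 genes of the unfolded protein response, namely Ern1 (which encodes the sensor IRE1), Eif2ak3 (the sensor PERK) and Xbp1, the transcription factor that IRE1 activates. In the deposited table, 33 of the 34 were found under their own symbol, and Vimp was found as Selenos, its current name. They are listed by name with no threshold on a measured value, although the list was drawn up with earlier results of these data known.

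Total RNA was taken from an immortalized murine podocyte cell line. Podocytes are the epithelial cells that wrap the capillaries of the kidney glomerulus. The cells had been differentiated without interferon-γ for 10 to 14 days at 37 degrees C, and were then exposed for 24 h to lentivirus at a multiplicity of infection of 200 to 500. In the Venus group, used as the control, the lentivirus carried the fluorescent protein Venus. In the OASIS group it carried the active form of OASIS, the transcription factor encoded by Creb3l1. The RNA was extracted 48 h after the lentivirus had been added, so both groups had received virus, and no uninfected cells were analysed here. Each group had 2 samples, and each sample had its own 1-colour Agilent array. A single slide held all 4 arrays, and it was scanned once. The labels do not say whether the samples of a group were separate cultures, so the p-values below measure the spread between these arrays, which may be technical. A single cell line was used, and the microarray served the study to find genes whose expression OASIS changes in podocytes.

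Proteins that enter the secretory pathway fold in the ER lumen, where chaperones hold them, foldases form disulfide bonds and turn prolyl bonds, and lectins read their sugar chains. Proteins that fail to fold are drawn back through the ER membrane, ubiquitinated and degraded, which is ERAD. When unfolded protein builds up, IRE1 splices the Xbp1 transcript and PERK slows translation, and the XBP1 protein then raises the transcription of chaperone and ERAD genes. OASIS is a membrane-bound relative of ATF6, another sensor of this response, and is known for its role in secretory cells such as osteoblasts and astrocytes.

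Each array had between 33938 and 34418 of 59305 spots well above background, and no spot was saturated. All values below are log2 intensities relative to the 75th percentile of the array, so a value of 0 lies at that percentile, and the brightness of a probe can be compared between arrays but not between probes. A probe entered the test if both OASIS arrays, both Venus arrays or all 4 arrays had it well above background. The 34 genes have 66 probes, of which 59 were tested, and 33 of the 34 genes had at least 1 tested probe. Derl3, an ERAD factor, was read by a single probe that was not well above background on any array. Fold changes are OASIS over Venus, fitted by limma, and p-values were adjusted by Benjamini-Hochberg over the 31598 probes that entered the test. Each gene was read by its brightest probe. The other probes of a gene are given where their call or direction differed. Of 10 podocyte marker genes, 7 were well above background on all 4 arrays, among them Synpo, Wt1 and Podxl, while Ptpro, which marks the foot process, was above background on none. Of the markers of other kidney cells, 3 of 5 tubule genes, 1 of 4 endothelial genes, 1 of 3 mesangial and fibroblast genes and 2 of 3 leukocyte genes were above background on all arrays. The summed log2 level of the podocyte markers was 5.67 and 5.75 with Venus and 5.68 and 5.77 with OASIS, that of the tubule markers was 5.01 and 5.39 against 5.06 and 5.67, and that of the leukocyte markers was 4.06 and 3.92 against 3.61 and 3.49. For the mesangial and fibroblast markers it was 1.30 and 1.59 against 1.26 and 1.56, and for the endothelial list, where Pecam1 alone was tested, -5.26 and -5.44 against -5.07 and -5.10. These sums are carried by the brightest probes, and single markers moved. With OASIS the brightest probes of the podocyte markers Wt1 and Cd2ap were 24.6-fold and 2.13-fold higher (adjusted p = 0.00215 and 0.00832). On the Venus arrays alone another probe of each was brighter, at a mean of -4.80 against -5.53 for Wt1 and 2.74 against 2.37 for Cd2ap. Neither of these brighter probes was called (log2 fold changes -0.16 and -0.37). The other tested Cd2ap probes had log2 fold changes of 0.31, called higher, and -0.37, not called. By brightest probe the tubule marker Lrp2 was 3.08-fold higher (adjusted p = 0.0148), and the leukocyte marker Itgam was 1.42-fold lower (adjusted p = 0.043). Another Lrp2 probe, at a log2 fold change of 1.68, was called too, while the rest, at -0.10, 0.01 and -0.16, were not. The other tested Itgam probe, at -0.006, was not called. By its brightest probe Pdgfra, a fibroblast marker, was above background on both OASIS arrays and on neither Venus array, at least 7.96-fold higher. Its other tested probe, above background on the same arrays alone, was called higher at a log2 fold change of 1.46. The part of these marker changes in the results below was not tested. In such bulk RNA fewer cells of a type and less RNA per cell cannot be told apart. The single Creb3l1 probe had log2 values of 0.71 and 0.72 with Venus and 0.61 and 0.49 with OASIS (limma adjusted p = 0.298), and whether it reads the lentiviral insert was not analysed here, so it does not test the labels.

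With OASIS, Xbp1, Eif2ak3, Edem3, Pdia5 and Dnajc3 rose by more than 2-fold, while the major chaperone Hspa5 (BiP) differed by less than the spread between arrays. By Student's t-test, adjusted over the tested probes, Edem3 and Dnajc3 were no longer called (adjusted p = 0.121 and 0.106). The study lists this test among its general statistics and names none for its arrays. Syvn1, Dnajc10, Derl2 and Manf lost their calls too, with an adjusted p between 0.102 and 0.194. That test called 4.17% of all genes higher and 2.97% lower. In all, 5 of the 33 genes passed the threshold of a fold over 2 and an adjusted p under 0.1 upward, where 6.21% of all 16318 genes tested did. None of the 33 passed it downward by limma, where 1.85% of all genes did, as the lowest log2 fold change by brightest probe was -0.64. At an adjusted p under 0.1 without a limit on the fold, 12 genes were higher, a share of 36.4%, where 18.6% of all genes were, and 2 were lower, a share of 6.06%, where 18.1% of all genes were. The remaining 19 were not called. On both OASIS arrays 21 genes lay above both Venus arrays, where 31.5% of all genes did, 7 lay below, where 39.4% of all genes did, and the arrays of 5 genes overlapped. The median log2 fold change of the 33 genes was 0.18, beside -0.056 over all genes tested. With 2 arrays against 2, an exact permutation test of a single gene cannot give a two-sided p below 0.333, so each call below depends on limma's estimate of the spread, which borrows from all probes.

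**Figure D1:**
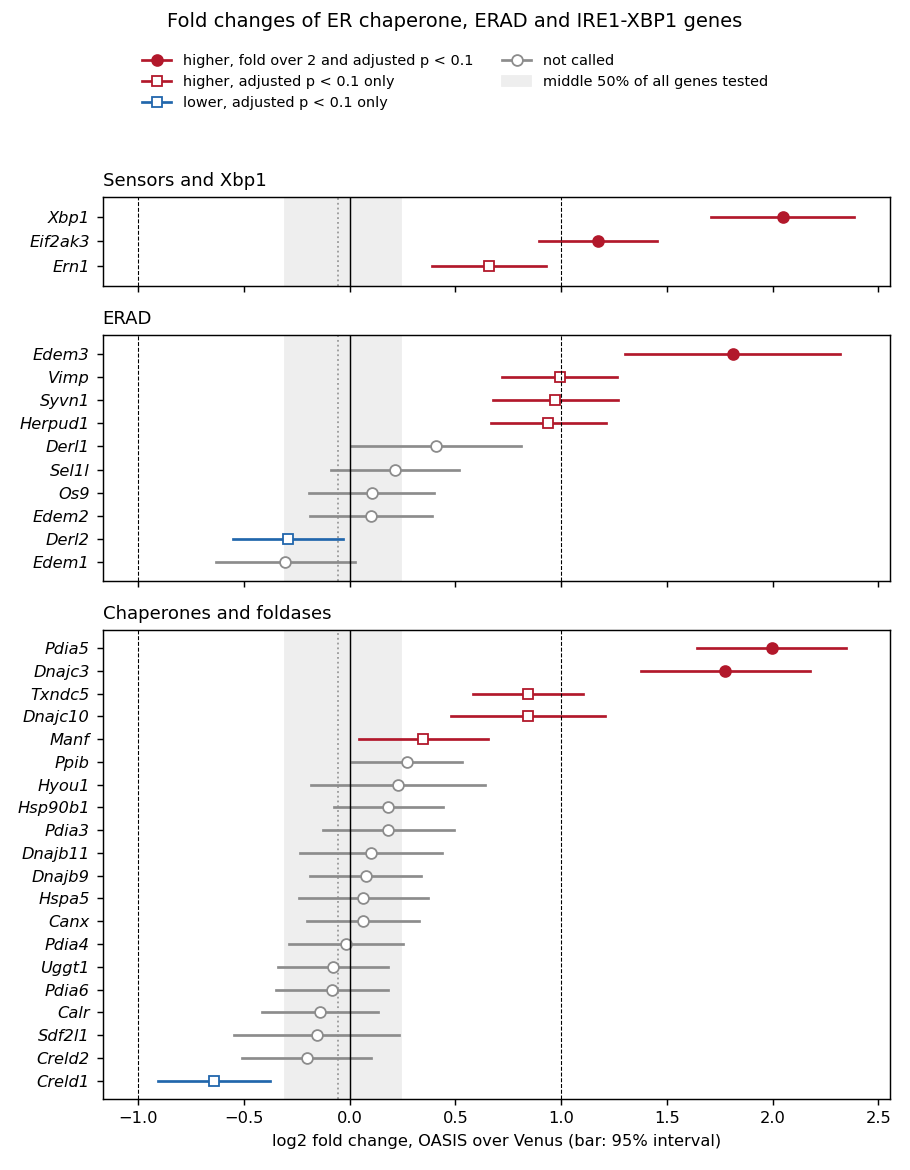
Log2 fold change of OASIS over Venus (x axis) for the brightest probe of each of the 33 tested genes, by class, with the 95% interval of the limma fit as a bar. The grey band holds the middle 50% of all genes tested, from -0.31 to 0.24, and the dashed lines mark a 2-fold change. Xbp1, Pdia5, Edem3, Dnajc3 and Eif2ak3 lie beyond the upper dashed line, and most chaperones lie inside the band.

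All 3 genes of the sensors and their transcription factor were called higher with OASIS by their brightest probe, where 18.6% of all genes were. Their median log2 fold change was 1.18. Xbp1, on chromosome 11 in band qA1, had log2 values of 4.62 and 4.55 with Venus and 6.76 and 6.51 with OASIS. Both OASIS arrays stood far above both Venus arrays. The log2 fold change was 2.05 (standard error 0.13, adjusted p = 0.00369), a 4.13-fold rise with a 95% interval of 3.27 to 5.22. The other Xbp1 probes, annotated to the same transcript, gave log2 fold changes of 2.33 and 2.47, so that every probe of this gene was past the threshold. Which of them read the spliced or the unspliced form of the transcript was not analysed here.

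Eif2ak3, the kinase that slows translation under ER stress, lies on chromosome 6 in band qC1. Its log2 values were 1.12 and 1.23 with Venus and 2.38 and 2.32 with OASIS, which do not overlap. It rose 2.26-fold (log2 fold change 1.18, standard error 0.11, adjusted p = 0.00674), and its dimmer probe gave a log2 fold change of 0.83. Ern1, the kinase and endonuclease that splices Xbp1, lies on chromosome 11 in band qE1 and had log2 values of 1.16 and 1.06 with Venus and 1.77 and 1.76 with OASIS. The groups did not overlap, and the brightest probe rose 1.58-fold (log2 fold change 0.66, standard error 0.10, adjusted p = 0.018). The other 2 tested probes of Ern1 each had a log2 fold change of 0.26 and were not called (adjusted p = 0.216 and 0.203), and a further 2 were not well above background. The rise of Ern1 was therefore called on its brightest probe alone. Without Venus replicate 1 its log2 fold change was 0.71 with an adjusted p of 0.109, and without Venus replicate 2 it was 0.61 with an adjusted p of 0.134.

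Of the 10 tested ERAD genes, 4 rose and 1 fell, and their median log2 fold change was 0.31. The shares called were 40% higher and 10% lower, where 18.6% and 18.1% of all genes were. Edem3, on chromosome 1 in band qG2, encodes a mannosidase-like protein that trims the sugars of misfolded glycoproteins. Its log2 values were 0.35 and 0.38 with Venus and 2.43 and 1.92 with OASIS. Both OASIS arrays stood well above the Venus arrays, although by brightest probe no other gene of the 33 had OASIS arrays so far from each other. The log2 fold change was 1.81 (standard error 0.19, adjusted p = 0.00865), a 3.51-fold rise, and its other probes gave 1.56 and 1.75, both past the threshold. Edem2, its relative, was read by 2 probes. It had log2 fold changes of 0.10 (95% interval -0.19 to 0.39) and 0.16, and neither was called.

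Edem1 was read differently by its probes. The brighter one had log2 values of 0.93 and 0.97 with Venus and 0.76 and 0.53 with OASIS, and was not called (log2 fold change -0.31, 95% interval -0.63 to 0.02, adjusted p = 0.142). The dimmer one had -0.90 on both Venus arrays, against 0.04 and 0.45 with OASIS, and it was past the threshold upward (log2 fold change 1.14, standard error 0.17, adjusted p = 0.0159). Both are annotated to the same transcript, so the direction of Edem1 depends on the probe.

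Syvn1, Herpud1 and Vimp, which belong to the complex that moves and ubiquitinates substrates at the ER membrane, rose by just under 2-fold. Syvn1 encodes the ubiquitin ligase at its centre and lies on chromosome 19 in band qA. Its log2 values were 4.23 and 4.35 with Venus and 5.32 and 5.20 with OASIS, and the groups did not overlap (log2 fold change 0.97, standard error 0.11, adjusted p = 0.0101). Herpud1, on chromosome 8 in band qC5, encodes a ubiquitin-like membrane protein that assembles the complex. It went from 3.55 and 3.58 to 4.55 and 4.45 (log2 fold change 0.94, standard error 0.10, adjusted p = 0.00916), and its other probe gave 0.96. Vimp, on chromosome 7 in band qC, encodes a selenoprotein that binds the derlins. It went from 3.37 and 3.43 to 4.44 and 4.35, a log2 fold change of 0.99 (standard error 0.10, adjusted p = 0.00822). Vimp and Syvn1 each have 1 probe. Neither the 3 genes nor their probes overlapped between the groups, and their folds of 1.96, 1.92 and 1.99 for Syvn1, Herpud1 and Vimp left them just short of the 2-fold limit.

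Other partners of this ligase were not called by their brightest probes. Sel1l, the adaptor that holds the ligase and its lectins, had log2 values of 3.10 and 3.19 with Venus and 3.27 and 3.44 with OASIS, and was not called (log2 fold change 0.21, 95% interval -0.09 to 0.52). A dimmer Sel1l probe annotated to the same transcript fell from -0.53 and -0.49 to -1.15 and -1.48 (log2 fold change -0.81, standard error 0.15, adjusted p = 0.0253), and the dimmest one, at 0.14, was not called. Os9, a lectin that delivers glycoproteins to the ligase, had a log2 fold change of 0.10 (95% interval -0.19 to 0.40), and its arrays overlapped.

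The derlins are membrane proteins of the retrotranslocation channel. Derl2, on chromosome 11 in band qB4, fell slightly, from log2 values of 4.67 and 4.62 to 4.37 and 4.33. Its groups did not overlap, and its log2 fold change was -0.29 (standard error 0.10, adjusted p = 0.0982), with -0.39 at its other probe (adjusted p = 0.059). The call at the brightest probe was lost without any 1 of the 4 arrays, with adjusted p-values from 0.151 without OASIS replicate 1 to 0.436 without Venus replicate 1, while its log2 fold change lay between -0.32 and -0.26. Derl1 had log2 values of 4.21 and 4.02 with Venus and 4.67 and 4.37 with OASIS at its brighter probe, with no overlap and no call (log2 fold change 0.41, 95% interval 0.01 to 0.81, adjusted p = 0.119). Without OASIS replicate 2 that probe was called, at 0.56 with an adjusted p of 0.082. Its dimmer probe, annotated to another transcript, was past the threshold upward (log2 fold change 1.04, adjusted p = 0.0135).

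Of the 20 chaperones and foldases, all of them tested, 5 rose, 1 fell and 14 were not called, and their median log2 fold change was 0.089. The shares called were 25% higher and 5% lower, where 18.6% and 18.1% of all genes were. Pdia5 and Dnajc3 rose most and were the 2 past the threshold. Pdia5, on chromosome 16 in band qB3, encodes a protein disulfide isomerase. Its single probe had log2 values of -0.43 and -0.32 with Venus and 1.75 and 1.49 with OASIS, which lie far apart. The log2 fold change was 1.996 (standard error 0.13, adjusted p = 0.00425), a 3.99-fold rise with a 95% interval of 3.12 to 5.09. Dnajc3, on chromosome 14 in band qE4, encodes a co-chaperone of BiP that is also known as an inhibitor of PERK. Its single probe had -2.85 and -2.50 with Venus and -0.87 and -0.93 with OASIS, without overlap (log2 fold change 1.78, standard error 0.15, adjusted p = 0.00645).

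Of the other disulfide isomerases of the set, Txndc5 was called higher and the remaining 3 were not called. Txndc5, on chromosome 13 in band qA3.3, encodes a thioredoxin-domain isomerase and had log2 values of 3.67 and 3.66 with Venus and 4.54 and 4.48 with OASIS. Arrays of a group lay close together, and the rise was 1.79-fold (log2 fold change 0.84, standard error 0.10, adjusted p = 0.0104). Pdia3, Pdia4 and Pdia6 were not called, with log2 fold changes of 0.18, -0.02 and -0.08. Their 95% intervals reached at most 0.49 upward, at Pdia3, and -0.35 downward, at Pdia6.

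Dnajc10, on chromosome 2 in band qC3, encodes the disulfide reductase that prepares ERAD substrates. Its brightest probe rose from 1.01 and 1.19 to 1.82 and 2.06 (log2 fold change 0.84, standard error 0.14, adjusted p = 0.0203). Its other tested probes, annotated to the same transcript, were not called and had log2 fold changes of -0.16 and -0.10. The call at the brightest probe was lost without Venus replicate 1, at 0.75 with an adjusted p of 0.12. Manf, on chromosome 9 in band qF1, encodes a secreted factor of the ER lumen that binds BiP. It went from 2.24 and 2.05 to 2.48 and 2.50 (log2 fold change 0.35, standard error 0.12, adjusted p = 0.0928), and its other probe, at 0.20, was not called. Leaving out any 1 array ended the call of Manf, with adjusted p-values from 0.175 without OASIS replicate 1 to 0.439 without Venus replicate 2.

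Creld1, on chromosome 6 in band qE3, was the only chaperone or foldase that was called lower by its brightest probe. It encodes a membrane-anchored protein with EGF-like domains. Its log2 values were 2.03 and 2.01 with Venus and 1.34 and 1.42 with OASIS, and the groups did not overlap. It was 1.56-fold lower (log2 fold change -0.64, standard error 0.10, adjusted p = 0.0185). Without Venus replicate 1 its adjusted p was 0.136, and without Venus replicate 2 it was 0.123, with log2 fold changes of -0.63 and -0.65. Its relative Creld2, a secreted protein known as a target of ER stress, had log2 values of 4.13 and 4.17 with Venus and 3.85 and 4.04 with OASIS. These do not overlap, but the difference was not called (log2 fold change -0.20, 95% interval -0.51 to 0.10).

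The abundant general chaperones were not called. Hspa5, on chromosome 2 in band qB, encodes BiP, the Hsp70 of the ER lumen and the protein most used as a marker of ER stress. Its brightest probe had log2 values of 6.13 and 6.30 with Venus and 6.33 and 6.23 with OASIS, which overlap. Its log2 fold change was 0.07 (standard error 0.12, adjusted p = 0.714), and the 95% interval, from -0.24 to 0.37, corresponds to folds of 0.846 to 1.29. The other Hspa5 probes, at -0.03 and -0.01, were not called and overlapped too. A p that misses the threshold does not show that the level was the same, but by the brightest probe of each of the 14 genes of this class that were not called the 95% interval stayed within 0.64 log2 units of 0 in either direction.

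Hsp90b1 (GRP94, the Hsp90 of the ER) had log2 values of 5.20 and 5.17 with Venus and 5.36 and 5.37 with OASIS. It did not overlap between the groups, although its log2 fold change of 0.18 was not called (95% interval -0.08 to 0.44). The lectin chaperones Calr and Canx had log2 fold changes of -0.14 and 0.06, and Uggt1, which returns unfolded glycoproteins to them, had -0.08. For Canx and Uggt1 a dimmer probe was called higher, at 0.40 (adjusted p = 0.0691) and 0.46 (adjusted p = 0.0662). Hyou1, the nucleotide exchange factor of BiP, had a log2 fold change of 0.23 at its brightest probe (95% interval -0.18 to 0.64), and 1 of its other probes was called higher, at 0.35 (adjusted p = 0.0985).

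Among the co-chaperones of BiP, Dnajb11 had log2 fold changes of 0.10 and 0.05 at its tested probes, and Sdf2l1, which binds Dnajb11, had -0.16 (95% interval -0.55 to 0.23). Dnajb9, a co-chaperone that represses IRE1 and a known target of XBP1, was read differently by its probes. The brighter one had log2 values of 1.74 and 1.81 with Venus and 1.85 and 1.85 with OASIS and was not called (log2 fold change 0.08, 95% interval -0.19 to 0.34). The dimmer one, annotated to the same transcript, fell from -0.11 and -0.13 to -1.07 and -1.34, past the threshold downward (log2 fold change -1.09, standard error 0.13, adjusted p = 0.0112). Ppib, the cyclophilin that turns prolyl bonds in collagen, had log2 values of 4.39 and 4.35 with Venus and 4.63 and 4.66 with OASIS. It did not overlap between groups, and it was not called (log2 fold change 0.27, 95% interval 0.01 to 0.53, adjusted p = 0.112).

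**Figure D2:**
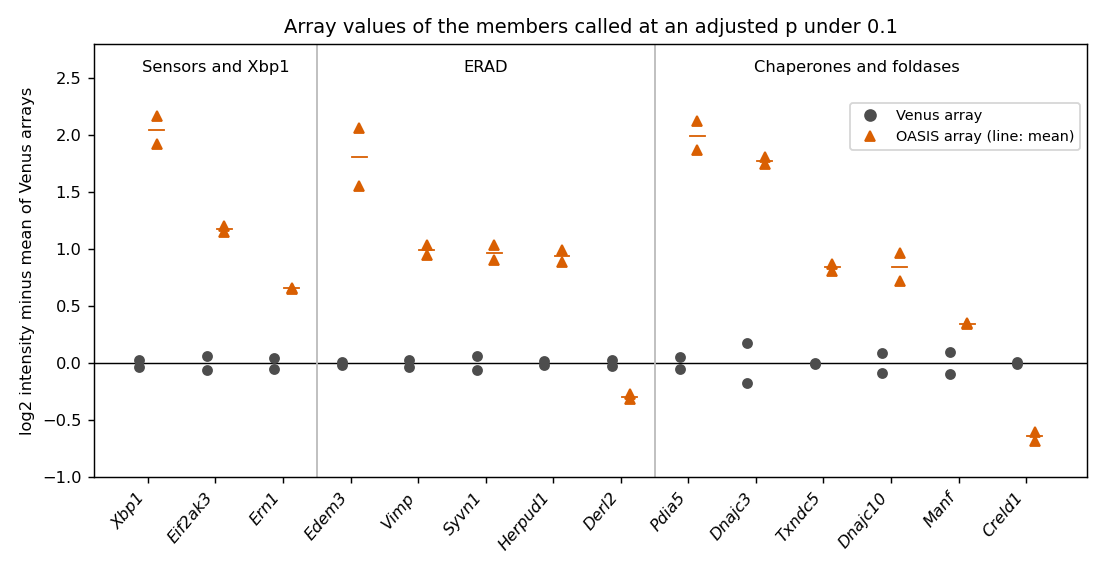
Log2 intensity on each array minus the mean of the Venus arrays (y axis) for the brightest probe of the 14 genes called at an adjusted p under 0.1, by class. Circles are Venus arrays, triangles OASIS arrays, and short lines the OASIS mean. In all 14 genes the OASIS arrays lie on 1 side of the Venus arrays, and the OASIS arrays lie farthest from each other for Edem3.

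Of the 33 genes, 19 had more than 1 tested probe, and for each of these the brightest probe was also the brightest on the Venus arrays alone. In 5 of the 19 every tested probe was called in the same direction. These were Xbp1, Eif2ak3, Edem3 and Herpud1, which were higher, and Derl2, which was lower. In 4 of the 19, namely Hspa5, Pdia3, Dnajb11 and Edem2, no tested probe was called. In the other 10 the tested probes were split between called and not called. The log2 fold changes of a gene's probes ranged over 0.34 at the median, from 0.016 for Herpud1 to 1.45 for Edem1, and in 4 genes (Edem1, Dnajb9, Sel1l and Dnajc10) the range was over 1. In 15 genes at least 2 tested probes were annotated to 1 transcript, and in 8 of these 15 such probes differed in their call. Over all 59 tested probes of the 34 genes, 23 were called higher, where 17% of all 31598 tested probes were, and 5 were called lower, where 19.7% were. The median log2 fold change was 0.21, beside -0.069 over all tested probes. What part of the transcript each probe reads was not analysed here.

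**Figure D3:**
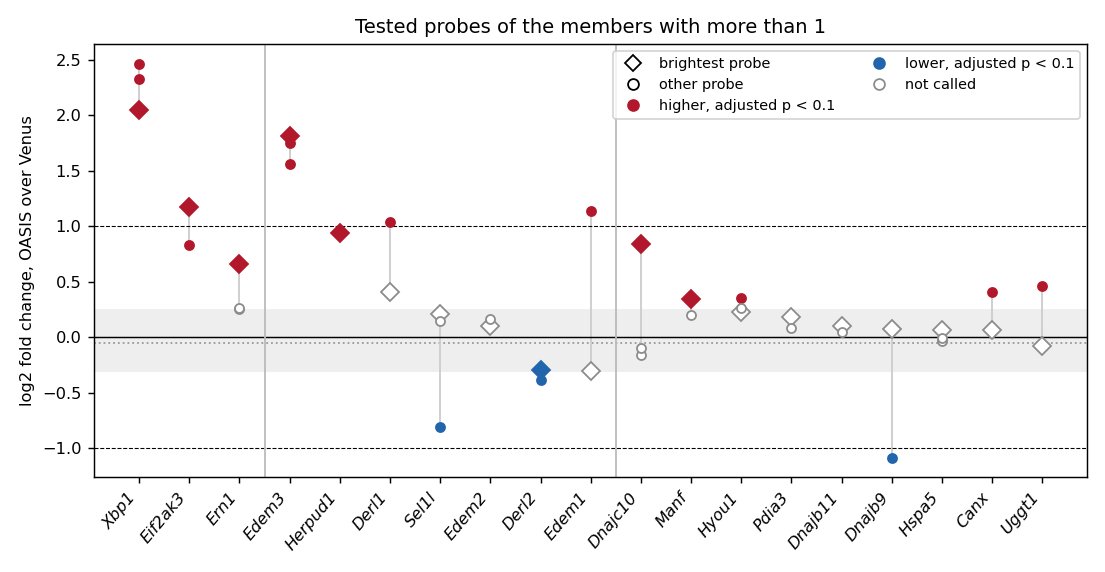
Log2 fold change (y axis) of every tested probe of the 19 genes with more than 1, by gene within class. Diamonds are the brightest probes, circles the others, filled symbols are called at an adjusted p under 0.1 (red higher, blue lower), and the grey band holds the middle 50% of all genes tested. The probes of Xbp1, Edem3 and Herpud1 lie together, while those of Edem1, Dnajb9, Sel1l and Dnajc10 lie more than 1 log2 unit apart.

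Between the classes, the number of tested genes that were called higher was 5 of 20 for the chaperones and foldases, 4 of 10 for ERAD and 3 of 3 for the sensors and Xbp1. Over all genes tested 18.6% were called higher, beside 25% of the chaperones and foldases. Relative to the median of all genes tested, the class medians lay 0.14, 0.37 and 1.23 log2 units higher. The upper quartile of all genes, at 0.24, was exceeded by 6 of 20 chaperones and foldases, 5 of 10 ERAD genes and 3 of 3 sensors and Xbp1, and 1 of the 33 genes, Creld1, lay below the lower quartile. These are descriptions of classes of unequal and small size, and the difference between them was not tested. The ERAD median also depended on the probe, since it was 0.57 with the mean of each gene's probes and 0.96 with the probe of the smallest p.

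A further 60 genes of the same pathways, outside the 34, were listed by role, and 58 of them were tested. Clgn entered the test only through the OASIS arrays and is left out of the counts that follow. Of the other 57 genes, 21 were higher and 6 lower at an adjusted p under 0.1, where 18.6% and 18.1% of all genes were. Their median log2 fold change was 0.19. The further chaperones and foldases held most of the calls, as 16 of 26 were higher and 2 lower, with a median of 0.44. Clgn, a lectin chaperone related to calnexin, was above background on both OASIS arrays but on neither Venus array, at least 5.72-fold higher against the background limit. Fkbp14, Fkbp7 and Fkbp10, prolyl isomerases of the ER, rose 5.75-fold, 3.85-fold and 2.89-fold (adjusted p = 0.00275, 0.00399 and 0.00558). For Fkbp14 the log2 values were 1.53 and 1.44 with Venus and 4.13 and 3.88 with OASIS. The absence of overlap between the groups was a condition for naming these 3 genes.

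The single further gene past the threshold downward was Ero1lb, an oxidase that charges protein disulfide isomerases. It fell from -1.97 and -1.95 to -3.40 and -3.29, a log2 fold change of -1.38 (standard error 0.10, adjusted p = 0.00513). Of the 22 further ERAD genes, 4 were higher and 4 lower, 18.2% each way, near the 18.6% and 18.1% of all genes. Their median log2 fold change was 0.019, close to that of all genes. Of 9 further sensors and regulators, which include Atf6 and its proteases, 1 was higher (11.1%) and none lower, with a median of 0.12. In 15 of the 30 further genes with more than 1 tested probe, the probes were split in their calls.

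**Figure D4:**
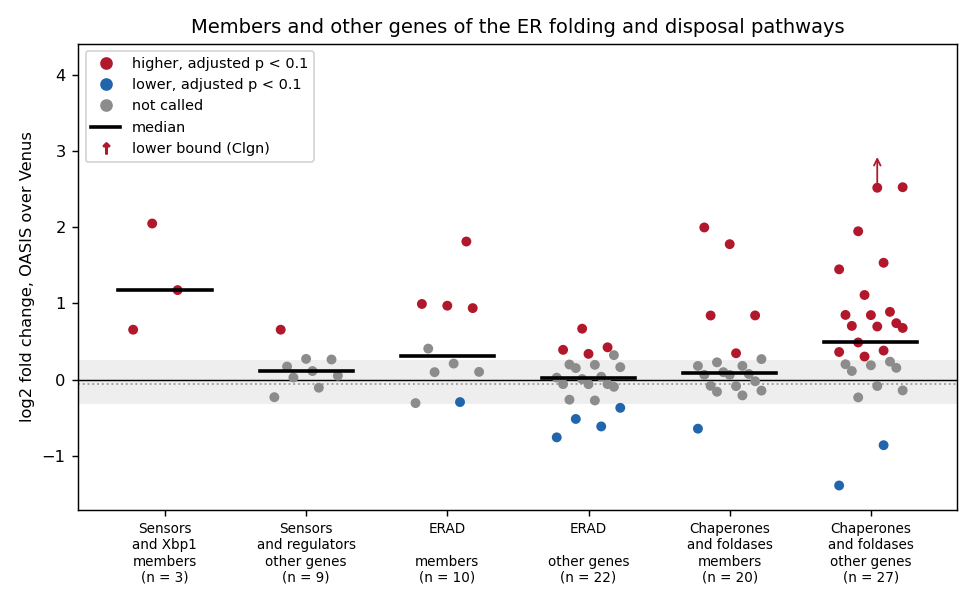
Log2 fold change (y axis) of each tested gene by its brightest probe, for the 3 classes of the 34 genes and the further genes of the same pathways, with the number tested under each name. Bars are medians, red and blue points are called at an adjusted p under 0.1, the grey band holds the middle 50% of all genes tested, and Clgn is drawn at its lower bound with an arrow. The further chaperones and foldases have 17 of 27 points in red, Clgn included, and the further ERAD genes have as many red as blue points.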

How the data were processed

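The authors hybridised Cy3-labelled cRNA to SurePrint G3 Mouse arrays. Per the file headers, Agilent Feature Extraction 12.1.0.3 made the deposited intensity values, which are background-subtracted spot signals, along with other marks deposited per spot (outlier, saturated, well above background). A deposited table of the whole series, from which gene symbols, bands and annotation were taken, holds the same intensity times 1 factor per array (0.697, 0.684, 0.663 and 0.698). The genome build of the array is not given in the sources used here, and no coordinates are printed.

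Control spots and outlier spots were dropped, the log2 intensity was taken minus the 75th percentile of its array, and spots that share a probe were averaged. A probe was well above background on an array if this held for at least 0.5 of its spots. limma 3.58.1 in R 4.3.3 (lmFit and eBayes, two-sided) compared 2 OASIS with 2 Venus arrays over 31598 probes, with Benjamini-Hochberg adjustment. The threshold, a fold over 2 or under 0.5 with an adjusted p under 0.1, is that of the study's methods. Intervals are 95% intervals of the fit. For Clgn, which no Venus array had above background, the bound sets the OASIS mean against the mean of the Venus arrays' detection limits (the dimmest probe above background on each array, or Clgn itself where brighter). The fit was tested on simulated data. The members, the further genes and the markers were chosen with earlier results of these data known, and so were the alternatives. Named were all 34 members, any probe of them that departed from the brightest in call or direction, the largest further changes past the threshold (at most 4 up and 4 down, without overlap between groups) and Creb3l1. The alternatives were another normalization (quantile, median, the authors' scaling, normexp with an offset of 50), filter, probe choice, eBayes trend, t-test, a replicate block, a stricter adjusted p and leaving out each array. A planned search of promoters was not run, and a slide block could not be fitted with 1 slide.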

Additional observations from a re-analysis of the deposited data

How the results depend on the processing

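Of the 33 genes, 396 fold changes were recomputed with all arrays kept, and 363 of them had the same direction and call, 11 lost their call, 14 gained one and 8 changed sign. Leaving out 1 array gave 132, of which 112 had the same direction and call, 13 lost their call, 3 gained one and 4 changed sign. In those fits the lone array of a group is taken to vary like the other group. Xbp1, Eif2ak3, Pdia5, Herpud1, Vimp and Txndc5 were called in every setting run.

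All 8 changes of sign with all arrays kept came from the choice of probe. With each gene read by the mean of its probes, the log2 fold changes of Dnajb9, Edem1, Sel1l and Uggt1 turned to -0.50, 0.42, -0.15 and 0.19, and the class medians became 0.16 (chaperones and foldases), 0.57 (ERAD) and 1.005 (sensors and Xbp1). With the probe of the smallest p, the same genes turned to -1.09, 1.14, -0.81 and 0.46, and 1 gene was past the threshold downward. In this setting 4 genes were called lower and 8 chaperones and foldases higher, where 24.8% and 22.1% of all genes were. The medians were 0.18 for chaperones and foldases and 0.96 for ERAD. Without a filter on dim probes, which raised the number of tests, 1 gene was called lower, where 6.12% of all genes were. The ERAD median, which then included Derl3, was 0.21. By Student's t-test after Benjamini-Hochberg adjustment, 3 genes were past the threshold upward. It called 7 higher (2 chaperones and foldases and 2 ERAD genes among them) and 1 lower. Among all genes it called 4.17% higher and 2.97% lower. Counting a gene only where every tested probe had the call, which was added after the values were seen, gave 9 higher and 2 lower. Of these, 4 of the 9 and 1 of the 2 had more than 1 tested probe, and the rest met the rule by their single probe. The share of all genes that meet this rule was not counted.

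Without 1 array, the number called lower ran from 0 to 2, that of chaperones and foldases called higher from 3 to 5, the median of this class from 0.059 to 0.13, and that of the sensors and Xbp1 from 1.12 to 1.23. Both counts were lowest without Venus replicate 1, and the first was 0 without Venus replicate 2 as well. Over all genes, the share called lower fell too, from 18.1% to 2.89% and 4.01% without Venus replicates 1 and 2, and the share called higher from 18.6% to 8.0% and 8.37%. The small log2 fold changes of Dnajb11 (-0.024 to 0.23), Hspa5 (-0.019 to 0.15) and Pdia4 (-0.051 to 0.015) changed sign. Samples of the groups share the numbers 1 and 2 in the labels, and deviations of same-numbered samples correlated at 0.259 across probes, which with 2 pairs does not show a pairing. With a replicate block, 13 genes were called higher and 2 lower, where 20.6% and 22.6% of all genes were, and Derl1 gained a call. The number of arrays limits the precision.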

Other observations

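The deposited annotation also places genes in the KEGG pathway of protein processing in the ER. It holds 26 of the 33 tested genes described above, of which 10 were higher (38.5%) and 1 lower (3.85%). It also holds 128 other genes that were tested, of which 45 were higher (35.2%) and 13 lower (10.2%), with 15 and 2 past the threshold. Over all genes tested, 18.6% were higher and 18.1% lower, with 6.21% and 1.85% past the threshold. The median log2 fold change was 0.20 for the 26 genes and 0.14 for the 128. Of the 128, 30 were also among the further genes listed above. Both this grouping and the names taken from it were picked with the values known.

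By size of the log2 fold change, the 5 largest rises among the 128 were Sec24d (2.72), Ckap4 (2.25), Sec23a (2.07), Sar1a (2.06) and Ssr1 (1.91), and the 2 falls past the threshold were Dnajc5 (-1.39) and Ero1lb (-1.38). Sec24d, which selects cargo for the coat that buds from the ER, had log2 values of -0.05 and -0.03 with Venus and 2.82 and 2.53 with OASIS (standard error 0.14, limma adjusted p = 0.00274). Sec23a is its partner in that coat, Sar1a is the GTPase that starts it, Ckap4 is a membrane protein of ER sheets and Ssr1 is a subunit of the complex beside the protein-conducting channel. In each of the 5 both OASIS arrays lay above both Venus arrays. Among other genes of that coat, Sec31a (1.01), Sec13 (0.74), Sar1b (0.69) and Sec23b (0.68) were called higher too. Not all followed, as Sec24b was called lower (-0.30) while Sec24a (0.28), Sec24c (0.21) and Sec31b (0.06) were not called.

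By the Gene Ontology location in the same annotation, 13 of the genes described above are placed in the ER lumen and 7 in the ER membrane, with Hspa5 and Hsp90b1 in both. Of the lumenal genes 5 were higher (38.5%) and none lower, with a median log2 fold change of 0.10. Of the membrane genes 3 were higher (42.9%) and none lower, with a median of 0.18. Over all genes tested, 18.6% were higher and 18.1% lower. The membrane term leaves out Syvn1, Vimp, Sel1l, the derlins and Creld1, and Derl2 and Creld1 were called lower.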
